A study of Mus musculus with 18 samples.

Results

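Epas1 encodes hypoxia-inducible factor 2 alpha (HIF-2α), and it is described here together with the genes that assemble, modify and destroy HIF: Hif1a, Hif3a, Arnt, Arnt2, Vhl, Hif1an, Egln1, Egln2 and Egln3. These 10 genes were taken by name, for their known place in the pathway, with earlier results of these data known. The study had singled out Epas1 as a candidate from these same libraries for its response to IWR-1 and its reported role in adult haematopoiesis. Its IWR-1 values here are not independent of that choice. By qPCR the study also reported that IWR-1 lowered Epas1 distinctively in E+F+ cells. Forced Epas1 did not restore blood colonies from E+F+ cells kept in IWR-1. All 10 were present among the 20321 rows of the count table, and all 10 were among the 13826 genes that passed the filter on low counts. The RNA came from GFP-Bry mouse embryonic stem (ES) cells, a single line with green fluorescent protein at the Brachyury locus, grown as embryoid bodies. On day 3 the cells were sorted by endoglin (E, an accessory receptor for TGF-β ligands, gene Eng) and Flk-1 (F, a receptor of vascular endothelial growth factor, gene Kdr), among cells with the Brachyury reporter on, or left unsorted. They were then reaggregated for 24 h with 10 µM IWR-1, which stabilises Axin and so dampens the β-catenin arm of Wnt signalling, or with DMSO, the vehicle. The 6 groups were E+F+ IWR-1, E+F+ DMSO, E+F- IWR-1, E+F- DMSO, unsorted IWR-1 and unsorted DMSO, each with 3 libraries numbered Set 1 to Set 3. E-F+ cells were not analysed here.

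A HIF is a pair of proteins, an α subunit made from Hif1a, Epas1 or Hif3a and a β subunit made from Arnt or Arnt2. With oxygen present, the prolyl hydroxylases Egln1, Egln2 and Egln3 mark the α subunit, the Vhl protein binds the mark and recruits a ubiquitin ligase, and the α subunit is degraded. Hif1an hydroxylates an asparagine instead and keeps coactivators away. When oxygen is scarce the α subunit persists and switches on genes of glycolysis, red cell production and vessel growth. This control acts on protein, so RNA levels do not report how much active HIF a cell held. Epas1 is best known from endothelial cells, and RNA of bulk samples cannot tell apart fewer cells of a type and less RNA per cell.

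Depth was even, with 19725500 to 26649631 expected counts per library. The haematopoietic markers Gata1, Tal1, Klf1, Itga2b and Runx1 summed to 115 to 290 TPM (transcripts scaled to length and library) in E+F+ DMSO libraries, against 7.64 to 20.7 TPM in E+F- DMSO libraries. Gata1, Tal1 and Klf1 were picked out by the study in these same libraries, so that sum is no independent check. The primitive streak markers T, Mesp1, Msgn1 and Tbx6 summed to 1.13 to 1.25 TPM in E+F+ DMSO and to 550 to 1066 TPM in E+F- DMSO. RNA of the sorted receptor went the other way 24 h after the sort: Kdr was at 7.69 to 13.4 TPM in E+F+ DMSO libraries and at 25.2 to 75.3 TPM in E+F- DMSO libraries. Eng overlapped, at 4.41 to 7.5 and 2.58 to 7.07 TPM in the same groups. The gates therefore describe the cells as sorted on the day before, and the labels E+F+ and E+F- are used in that sense.

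Epas1 lies on chromosome 17, positions 86753700 to 86833410 of GRCm38, plus strand, with up to 16 exons in its annotated transcripts. Of the 10 genes it varied most between libraries, with 94.3 times as many TPM in the highest (E+F+ DMSO, Set 3) as in the lowest (E+F- IWR-1, Set 1). In E+F+ cells it was at 6.51, 6.15 and 14.5 TPM under IWR-1 (Sets 1, 2 and 3) and at 18.9, 16.5 and 20.7 TPM under DMSO. In E+F- cells it was at 0.22, 0.36 and 0.78 TPM under IWR-1 and at 0.61, 0.83 and 2.03 TPM under DMSO. Unsorted cells had 1.26, 1.36 and 5.46 TPM under IWR-1 and 3.79, 10.3 and 13.1 TPM under DMSO. Every E+F+ library was above every E+F- library, and in each Set the IWR-1 library of a population was below its DMSO library. By group mean the order was E+F+ DMSO, unsorted DMSO, E+F+ IWR-1, unsorted IWR-1, E+F- DMSO and E+F- IWR-1. Among these neighbours only E+F+ DMSO and unsorted DMSO, and E+F+ IWR-1 and unsorted IWR-1, did not overlap.

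**Figure D1:**
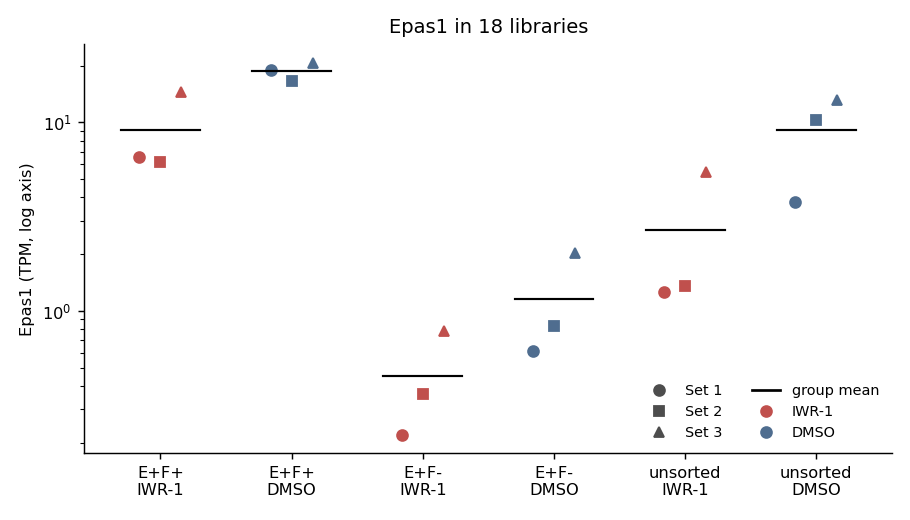
Epas1 in TPM on a log axis for each of the 18 libraries, by group, with a marker shape for each Set and a horizontal line at the group mean. All 6 E+F+ libraries sit at or above 6.15 TPM and all 6 E+F- libraries at or below 2.03 TPM, and within every Set the IWR-1 point is below the DMSO point of the same population.

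Epas1 rose strongly in E+F+ cells relative to E+F- cells. Under DMSO it averaged 18.7 ± 2.11 TPM where E+F+ cells were reaggregated and 1.16 ± 0.764 TPM where E+F- cells were (SD, n = 3 each). The log2 difference of the counts was 4.19 ± 0.66 (SE, edgeR adjusted p = 0.000435), an 18.3-fold difference. Under IWR-1 the averages were 9.07 ± 4.74 TPM for E+F+ cells and 0.453 ± 0.291 TPM for E+F- cells (SD, n = 3 each), with a log2 difference of 4.37 ± 0.69 (SE, edgeR adjusted p = 0.000617). The E+F- libraries held only 16.1 to 111 expected counts of Epas1, against 433 to 1585 in the E+F+ libraries. Both calls held in all 18 alternative fits of each comparison. The endothelial markers Pecam1, Cdh5, Tek, Tie1 and Emcn moved with Epas1 between the populations: they summed to 22.4 to 37.9 TPM in E+F+ DMSO and 1.03 to 6.25 TPM in E+F- DMSO libraries, and none of the 5 was at 0 in all libraries of a group, although Emcn was at or below 0.26 TPM everywhere. The haematopoietic and primitive streak sums given above moved too, and the pluripotency markers summed to 12.4 to 25.4 TPM in E+F+ DMSO and 82.9 to 377 TPM in E+F- DMSO libraries. The part of these cell types in the difference was not tested.

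The effect of IWR-1 on Epas1 had the same sign in all populations but did not pass the test across all genes. In E+F+ cells the log2 difference of IWR-1 from DMSO was -1.07 ± 0.58 (SE, edgeR adjusted p = 0.986), and the TPM of the groups did not overlap. In E+F- cells it was -1.25 ± 0.68 (SE, edgeR adjusted p = 0.714), and in unsorted cells -1.78 ± 0.60 (SE, edgeR adjusted p = 0.375). Epas1 was lower under IWR-1 in 9 of 9 pairs of libraries of the same Set and population, a pattern that 4.80% of the genes tested shared. Libraries of the same Set deviated together in these comparisons, and with the Sets as a block the difference in unsorted cells was called, at -1.93 ± 0.35 (SE, edgeR adjusted p = 0.0204), when 0.868% of genes were. The blocked difference in E+F+ cells was -1.24 ± 0.33 (SE, edgeR adjusted p = 0.261), when 0.0651% of genes were called. It was called only when the block was fitted to the 6 E+F+ libraries alone, at -1.16 (edgeR adjusted p = 0.00704), a fit chosen after the data were seen in which 5.64% of genes were called. The blocked adjusted p in E+F- cells was 0.213, when 1.49% of genes were called.

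The IWR-1 effects on Epas1 were also compared directly. The effect in E+F+ cells was 0.18 ± 0.87 on the log2 scale above that in E+F- cells and 0.71 ± 0.82 above that in unsorted cells (SE, edgeR adjusted p = 1 for each), so no difference between populations was detectable. None of the 10 genes was called in these comparisons, and 0.0289% and 0% of all genes were. The sign of the first of these turned in several alternative fits. Marker sums of other cell types also differed between IWR-1 and DMSO libraries. The endothelial markers summed to 29.5 to 58.5 TPM in E+F+ IWR-1 libraries against 22.4 to 37.9 TPM in E+F+ DMSO, and to 22.0 to 51.6 TPM in unsorted IWR-1 against 9.66 to 40.0 TPM in unsorted DMSO. The haematopoietic markers summed to 147 to 341 TPM in E+F+ IWR-1 and 115 to 290 TPM in E+F+ DMSO libraries. The ranges of both sums overlapped between IWR-1 and DMSO libraries. The cardiac markers Nkx2-5, Tnnt2, Myl7 and Myh6 summed to 34.2 to 52.8 TPM in E+F+ IWR-1 against 12.6 to 24.4 TPM in E+F+ DMSO. They summed to 31.2 to 174 TPM in E+F- IWR-1 against 14.9 to 25.8 TPM in E+F- DMSO. In unsorted cells the sums were 55.8 to 115 TPM under IWR-1 against 17.96 to 27.91 TPM under DMSO. The IWR-1 sums were above DMSO in each population without overlap. In E+F- and unsorted cells this was mainly Myl7, with means of 102 against 18.4 and 71.2 against 13.8 TPM. Tnnt2 was nearly level there, at 1.23 against 1.14 and 8.63 against 8.37 TPM. In E+F+ cells Myl7 (24.6 against 7.31 TPM) and Tnnt2 (19.6 against 11.5 TPM) were both higher by mean. In E+F- libraries the primitive streak markers summed to 383 to 480 TPM under IWR-1 and 550 to 1066 TPM under DMSO, and the pluripotency markers to 298 to 974 TPM under IWR-1 and 82.9 to 377 TPM under DMSO. Pluripotency markers were at 183 to 749 TPM in unsorted IWR-1 and 107 to 328 TPM in unsorted DMSO libraries. The part of these cell types in the IWR-1 effects was not tested.

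Hif1a, which encodes HIF-1α, was the more abundant α subunit in every library. It was at 43.1, 47.4 and 56.3 TPM in E+F+ IWR-1, at 45.3, 51.2 and 57.6 TPM in E+F+ DMSO, at 35.8, 41.5 and 46.1 TPM in E+F- IWR-1, and at 43.3, 49.0 and 51.4 TPM in E+F- DMSO libraries (Sets 1, 2 and 3). The groups overlapped throughout, and in each of these 4 groups Set 3 was highest. Over all 18 libraries the highest value of Hif1a was 1.69 times the lowest. The log2 difference of E+F+ from E+F- cells was 0.22 ± 0.17 under DMSO (SE, edgeR adjusted p = 0.354) and 0.26 ± 0.17 under IWR-1 (SE, edgeR adjusted p = 0.294). With the Sets as a block the difference under IWR-1 passed narrowly (adjusted p = 0.0496), when 31% of genes were called. Hif1a too was lower under IWR-1 in 9 of 9 pairs, by a log2 difference of only -0.09, -0.13 and -0.13 in E+F+, E+F- and unsorted cells, none of them called.

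Since Hif1a was nearly level, the make-up of the α subunit RNA followed Epas1. TPM are scaled by transcript length, so the 3 genes can be set beside one another. Epas1 made up 14.4% ± 4.58 of the summed α subunit TPM of E+F+ cells under IWR-1 and 26.1% ± 2.35 under DMSO (SD, n = 3 each). In E+F- libraries it made up 0.947% ± 0.480 under IWR-1 and 2.20% ± 1.28 under DMSO, and in unsorted libraries 4.82% ± 3.61 under IWR-1 and 14.2% ± 5.41 under DMSO (SD, n = 3 each). The shares of the E+F+ IWR-1 libraries, 11.1% to 19.6%, were all below those of E+F+ DMSO, 23.8% to 28.5%.

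**Figure D2:**
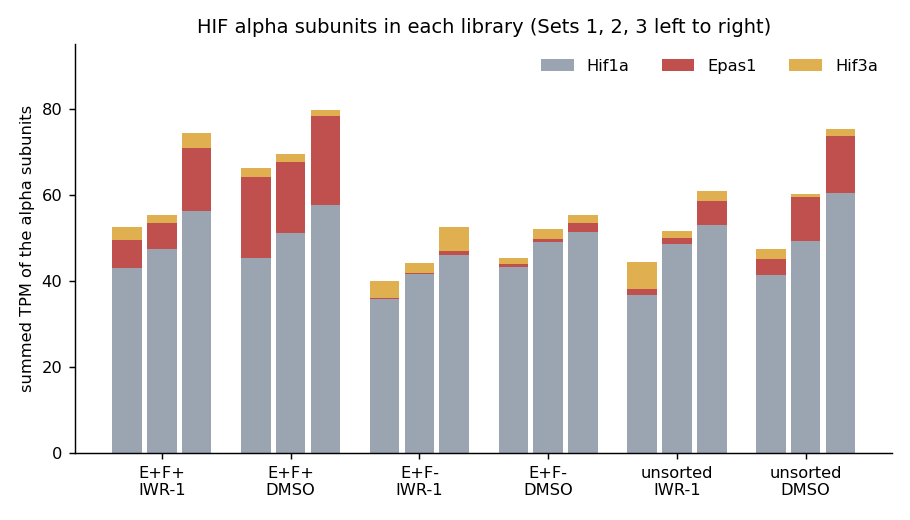
Stacked bars of Hif1a, Epas1 and Hif3a TPM in each of the 18 libraries, with Sets 1, 2 and 3 from left to right within a group. Hif1a is the largest part of every bar (35.8 to 60.4 TPM), and the Epas1 part is 16.5 to 20.7 TPM in E+F+ DMSO and at most 2.03 TPM in E+F- libraries.

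Hif3a, whose products include inhibitory forms that compete for the β subunit, was low, and its differences under IWR-1 had the opposite sign from those of Epas1. In E+F- cells it was at 4.06, 2.40 and 5.73 TPM under IWR-1 and at 1.5, 2.21 and 1.81 TPM under DMSO. In unsorted cells it was at 6.33, 1.78 and 2.28 TPM under IWR-1 and 2.33, 0.70 and 1.69 TPM under DMSO, and in E+F+ cells at 2.96, 1.87 and 3.44 against 2.01, 1.74 and 1.47 TPM. The E+F- groups did not overlap, while the unsorted groups did. The log2 differences were 1.07 ± 0.45 in E+F-, 0.87 ± 0.45 in unsorted and 0.40 ± 0.45 in E+F+ cells (SE), and none passed (edgeR adjusted p = 0.554, 0.634 and 0.997). Hif3a was higher under IWR-1 in 7 of 9 pairs on the scale of library-normalised counts (log2 CPM), and in every pair by TPM. It did not pass in E+F+ against E+F- cells in either condition.

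The β subunits differed in opposite directions between the populations under DMSO, and under IWR-1 only Arnt2 was called. Arnt, the shared partner of the α subunits, was at 46.1, 44.2 and 43.5 TPM in E+F+ DMSO libraries and 27.03, 32.56 and 40.53 TPM in E+F- DMSO libraries. These groups did not overlap, and Arnt rose in E+F+ cells by a log2 difference of 0.52 ± 0.11 (SE, edgeR adjusted p = 0.00267). That call was lost in 4 of 18 alternative fits, among them log2(TPM + 1) (limma adjusted p = 0.0654) and the counts without Set 1 (0.40, edgeR adjusted p = 0.0584). Under IWR-1 the E+F+ libraries, at 44.2, 38.7 and 39.9 TPM, overlapped the E+F- libraries, at 36.6, 30.3 and 42.0 TPM, and the log2 difference of 0.20 ± 0.11 did not pass (SE, edgeR adjusted p = 0.21).

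Arnt2, a paralogue known best from neural tissue, fell in E+F+ cells. It was at 1.57, 1.81 and 1.77 TPM in E+F+ DMSO libraries and at 4.26, 5.26 and 4.67 TPM in E+F- DMSO libraries, a log2 difference of -1.35 ± 0.21 (SE, edgeR adjusted p = 0.000397). Under IWR-1 it was at 2.05, 2.28 and 1.87 TPM in E+F+ and at 4.77, 5.53 and 4.65 TPM in E+F- libraries, a log2 difference of -1.27 ± 0.21 (SE, edgeR adjusted p = 0.000795). The groups were far apart in both conditions, and both calls held in all 18 alternative fits of each comparison. Arnt2 was higher with IWR-1 in 8 of 9 pairs, but its largest log2 difference, 0.25 ± 0.21 in E+F+ cells, did not pass (SE, edgeR adjusted p = 0.997).

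The prolyl hydroxylases Egln1 and Egln3 are themselves HIF targets, a feedback by which a cell starved of oxygen makes more of the enzymes that switch HIF off. Their promoters are shown for this reason, taken from RefSeq on GRCm38.p6 and ending before the annotated start of each gene. The Egln1 stretch is chr8:124949325-124949504, minus strand, and the Egln3 stretch is chr12:54203875-54204124, minus strand. Capitals mark the core of the hypoxia response element, searched as ACGTG or GCGTG on both strands.
Egln1: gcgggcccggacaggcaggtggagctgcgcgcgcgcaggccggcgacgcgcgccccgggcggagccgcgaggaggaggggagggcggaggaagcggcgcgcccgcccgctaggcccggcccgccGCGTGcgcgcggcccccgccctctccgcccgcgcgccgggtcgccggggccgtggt
Egln3: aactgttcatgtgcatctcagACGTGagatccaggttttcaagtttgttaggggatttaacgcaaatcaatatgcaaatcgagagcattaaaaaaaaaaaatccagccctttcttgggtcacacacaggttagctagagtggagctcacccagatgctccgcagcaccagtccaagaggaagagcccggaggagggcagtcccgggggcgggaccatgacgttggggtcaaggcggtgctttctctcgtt
Each of these stretches held 1 core. Over the windows of 300 bases from 250 before to 50 after the start, Hif1a, Hif3a, Arnt, Egln1, Egln2 and Egln3 had at least 1 core, while Arnt2, Vhl and Hif1an had none. Of 32851 promoter windows of that length 43.8% had a core, so its presence is common. The TCF/LEF motif, searched as CTTTGA or CTTTGT on both strands, was in the Arnt2 window alone, and 31.2% of windows had it. RefSeq windows were matched for 9 of the 10 genes, all but Epas1.

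Egln1 and Egln3 varied more between libraries of a group than the remaining hydroxylase. In E+F+ cells Egln1 was at 109, 78.8 and 85.2 TPM under IWR-1 and at 132, 88.5 and 92.2 TPM under DMSO. E+F- cells had 98.3, 26.1 and 61.4 TPM under IWR-1 and 15.7, 33.2 and 61.4 TPM under DMSO. The E+F+ and E+F- libraries did not overlap under DMSO and did under IWR-1. Egln1 was higher in E+F+ cells under DMSO by a log2 difference of 1.65 ± 0.58 (SE, edgeR adjusted p = 0.0454), a call that was lost in 11 of 18 alternative fits, among them the one without the E+F- DMSO library of Set 1 (log2 difference 1.31, adjusted p = 0.152). Under IWR-1 the log2 difference was 0.58 ± 0.57 (SE, edgeR adjusted p = 0.518).

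Egln3 ran beside Egln1. It was at 85.6, 68.3 and 83.5 TPM in E+F+ IWR-1, at 89.0, 68.0 and 88.3 TPM in E+F+ DMSO, at 89.9, 19.7 and 56.3 TPM in E+F- IWR-1 and at 15.2, 28.6 and 66.8 TPM in E+F- DMSO libraries. The log2 difference of E+F+ from E+F- cells, 1.31 ± 0.57 under DMSO (SE, edgeR adjusted p = 0.1) and 0.54 ± 0.56 under IWR-1 (SE, edgeR adjusted p = 0.543), did not pass. Over all 18 libraries the ratio of Egln1 to Egln3 TPM stayed between 0.831 and 1.48, while Egln1 itself differed by 8.41 times between its highest and lowest library. Egln2, which HIF is not known to induce, was at 51.0 to 66.4 TPM in all 18 libraries and was not called in any comparison.

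**Figure D3:**
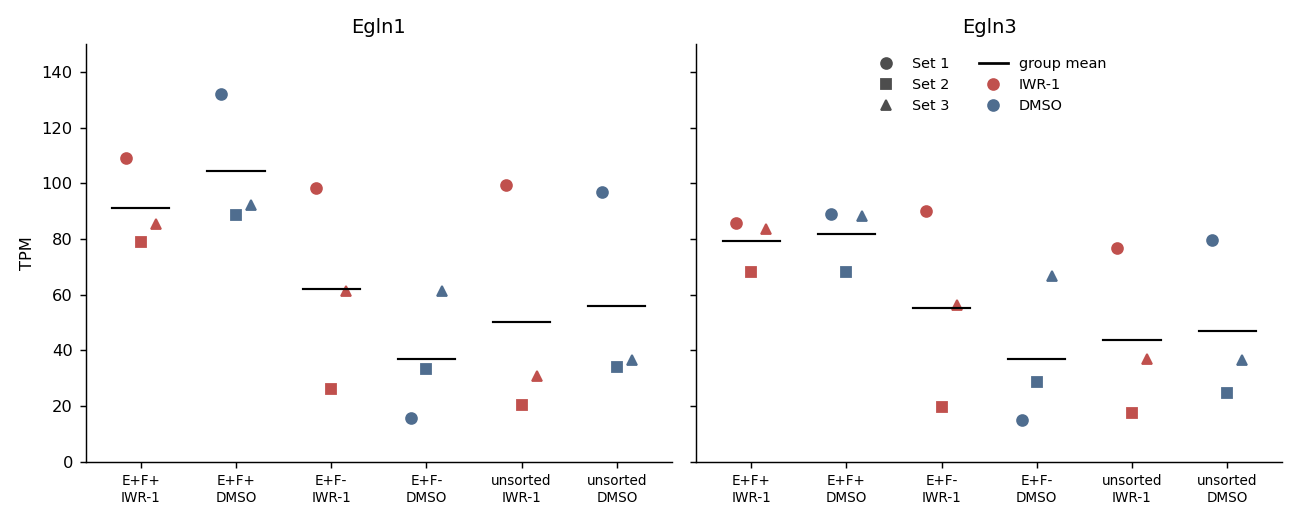
Egln1 (left panel) and Egln3 (right panel) in TPM for each of the 18 libraries, by group, with a marker shape for each Set and a line at the group mean. The Set 1 points of E+F- IWR-1, unsorted IWR-1 and unsorted DMSO lie at 96.7 to 99.3 TPM of Egln1 and 76.7 to 89.9 TPM of Egln3, above the Set 2 and Set 3 points of their groups, while the Set 1 point of E+F- DMSO is the lowest.

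The spread of Egln1 and Egln3 was that of single libraries. Many other HIF targets shared it, while the list of vessel growth, oxygen and iron supply did so only in E+F- DMSO libraries. These observations were made after the values were seen. In unsorted cells Egln1 was at 99.3, 20.5 and 30.7 TPM under IWR-1 and at 96.7, 34.2 and 36.5 TPM under DMSO, so Set 1 was high in both. Set 1 of the E+F- cells was the highest library under IWR-1 and the lowest under DMSO. A list of 23 tested HIF targets of matrix, survival and feedback (among them Bnip3, P4ha1 and Ankrd37) had its highest value in Set 1 for 21 genes of the E+F- IWR-1 group and for 0 of the E+F- DMSO group. In unsorted cells it was highest in Set 1 for 21 genes under IWR-1 and 17 under DMSO, and in E+F+ cells for 17 under IWR-1 and 18 under DMSO. A list of 20 tested targets of glucose uptake and glycolysis did likewise. Set 1 was highest there for 16 genes in E+F- IWR-1, 0 in E+F- DMSO, 17 in unsorted IWR-1 and 15 in unsorted DMSO. In E+F+ cells it was highest for 12 under IWR-1 and 13 under DMSO. For 24 tested targets of vessel growth, oxygen and iron supply, Set 3 was most often highest in each E+F- and unsorted group. In E+F- DMSO libraries the other target lists were also most often highest in Set 3. That was so for 18 genes of matrix, survival and feedback and 14 of glucose uptake and glycolysis. The vessel growth, oxygen and iron supply list was highest in Set 3 for 15 genes in E+F- IWR-1, 18 in E+F- DMSO, 13 in unsorted IWR-1 and 16 in unsorted DMSO. Over all genes tested, Set 3 was highest for 39.3%, 41.5%, 31.9% and 33.1% in the same order. For all genes tested the Set 1 library was highest for 29.3% (E+F- IWR-1), 30.5% (E+F- DMSO), 39.8% (unsorted IWR-1), 35.6% (unsorted DMSO), 33.7% (E+F+ IWR-1) and 31.4% (E+F+ DMSO). The log2 difference of IWR-1 from DMSO in E+F- cells was 0.86 ± 0.57 for Egln1 and 0.70 ± 0.56 for Egln3 (SE, edgeR adjusted p = 0.805 and 0.856). Without Set 1 both differences turned to the other sign, at -0.0099 and -0.22. For Epas1 the Set 1 library was the lowest of its group in both E+F- and both unsorted groups, which is the same place as for Egln1 and Egln3 in E+F- DMSO and the opposite one in the other 3 groups.

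Vhl, the substrate receptor of the ubiquitin ligase, was at 34.2, 21.5 and 30.5 TPM in E+F+ DMSO and 26.9, 19.4 and 26.8 TPM in E+F- DMSO libraries. The groups overlapped, and the log2 difference was 0.36 ± 0.19 (SE, edgeR adjusted p = 0.17). Hif1an, the asparagine hydroxylase, was at 26.4, 23.1 and 29.4 TPM in E+F+ DMSO and 24.5, 26.1 and 34.1 TPM in E+F- DMSO libraries, with a log2 difference of 0.02 ± 0.10 (SE, edgeR adjusted p = 0.889). Over all 18 libraries Vhl ranged from 17.6 to 34.2 TPM and Hif1an from 20.3 to 34.1 TPM. Neither gene was called for IWR-1 in any population.

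Counted over the 10 genes, 3 (Epas1, Arnt and Egln1) rose and 1 (Arnt2) fell in E+F+ against E+F- cells under DMSO, while 26.6% of all genes tested were called, 12.8% higher and 13.8% lower. Under IWR-1, Epas1 rose and Arnt2 fell, and 22.5% of genes were called, 10.4% higher and 12.1% lower. Their share of called genes was thus near the background. The median log2 difference of the 10 genes was 0.29 under DMSO and 0.21 under IWR-1, against -0.0097 and -0.0073 over all genes. The TPM of E+F+ and E+F- libraries did not overlap for 5 of the 10 genes under DMSO, when 42.9% of genes did not, and for 2 under IWR-1, when 35.9% did not. None of the 10 was called for IWR-1 in E+F+, E+F- or unsorted cells without the block, and with it 1, Epas1 in unsorted cells, was. The background without the block was 0% of genes in E+F+ cells, 0.521% in E+F- cells and 0.094% in unsorted cells. TPM of IWR-1 and DMSO libraries did not overlap for 2 of the 10 in E+F+ cells (Epas1 and Arnt2), 1 in E+F- cells (Hif3a) and 0 in unsorted cells, when 12.9%, 14.4% and 10.9% of genes did not. In E+F+ cells edgeR called 0 of 13826 genes, with 695 at an unadjusted p under 0.05, and DESeq2 called 29.

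**Figure D4:**
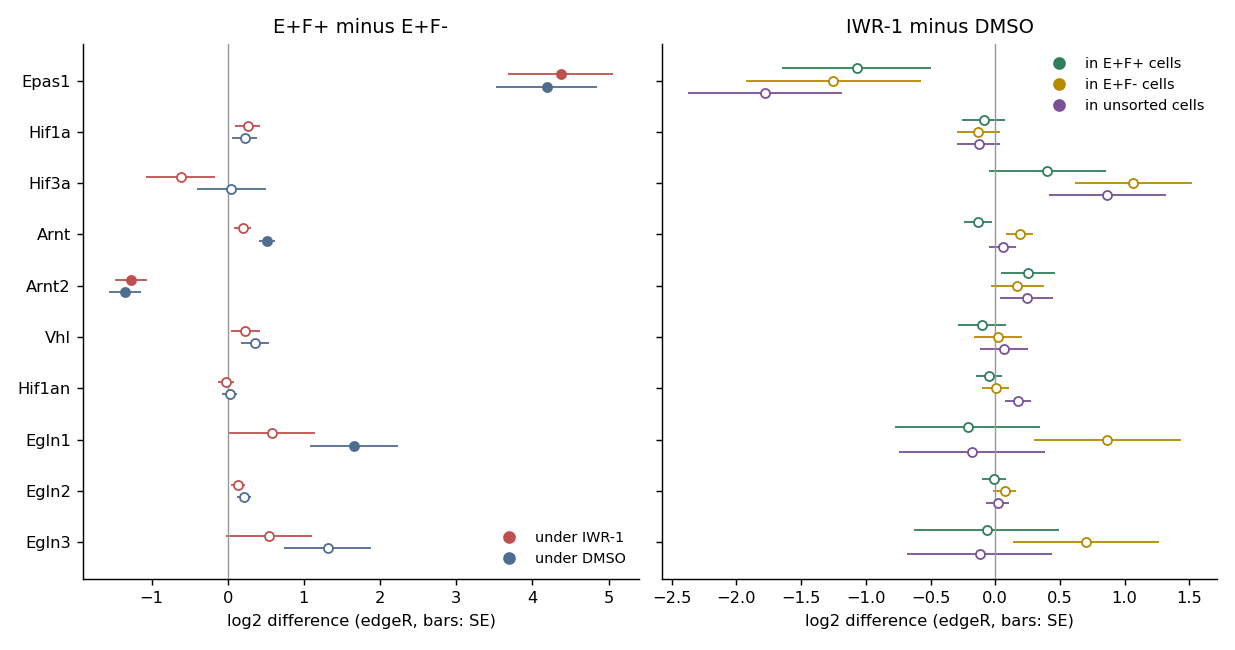
Log2 differences with their standard errors for the 10 genes, E+F+ minus E+F- cells under IWR-1 and DMSO (left panel) and IWR-1 minus DMSO in the 3 populations (right panel). Filled points passed an adjusted p of 0.05. Epas1 stands at 4.37 and 4.19 and Arnt2 at -1.27 and -1.35 in the left panel, and no point is filled in the right panel.

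Unsorted cells, which hold the sorted populations together with others, lay between E+F+ and E+F- cells for Epas1. These comparisons share their E+F+ and E+F- libraries with those above and are not independent of them. Under DMSO the log2 difference of Epas1 from unsorted cells was 1.13 ± 0.58 in E+F+ cells (SE, edgeR adjusted p = 0.223) and -3.06 ± 0.64 in E+F- cells (SE, edgeR adjusted p = 0.00934). Arnt was the 1 gene of the 10 called in E+F+ against unsorted cells under DMSO (0.50 ± 0.11, SE, edgeR adjusted p = 0.0117), when 10.6% of genes were. Arnt2 was called beside Epas1 in E+F- against unsorted cells (0.90 ± 0.21, SE, edgeR adjusted p = 0.0155), when 9.48% were. The call of Epas1 in E+F- cells was lost without Set 2 (-2.75, edgeR adjusted p = 0.293) and without the E+F- DMSO library of Set 1 (-2.79, edgeR adjusted p = 0.0504). The call of Arnt2 there was lost in 6 of 18 alternative fits, and that of Arnt in E+F+ cells in 5.

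Under IWR-1 none of the 10 passed in E+F+ against unsorted cells, when 10% of genes did, and Epas1 had a log2 difference of 1.84 ± 0.60 (SE, edgeR adjusted p = 0.0623). In E+F- against unsorted cells Epas1 was at -2.53 ± 0.67 (SE, edgeR adjusted p = 0.0539), and only Arnt2 passed (0.83 ± 0.21, SE, edgeR adjusted p = 0.048), when 2.66% of genes did. That call of Arnt2 was lost in 13 of 18 alternative fits. With the Sets as a block Epas1 was called in all 3 of these paired comparisons: in E+F+ against unsorted cells under DMSO (1.30, adjusted p = 0.0147) and IWR-1 (1.99, adjusted p = 0.00197) and in E+F- against unsorted cells under IWR-1 (-2.40, adjusted p = 0.00361, when 12.4% of genes were called). The block also added Vhl and Hif1an under DMSO and Arnt and Vhl under IWR-1 to the calls in E+F+ against unsorted cells, when 20.3% and 19.5% of genes were called.

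The wider pathway was described through 6 lists, chosen by known function. In E+F+ against E+F- cells under DMSO most tested genes of glucose uptake and glycolysis rose. Of 20 tested, 15 rose, 0 fell and 5 did not pass (Hk2, Pfkl, Pfkfb3, Aldoc and Slc16a3), when 12.8% of all genes rose, with a median log2 difference of 1.09 against -0.01 for all genes. Slc2a1, the glucose transporter GLUT1, averaged 2475 ± 593 TPM in E+F+ DMSO and 296 ± 203 TPM in E+F- DMSO cells (SD, n = 3 each), a log2 difference of 3.22 ± 0.49 (SE, edgeR adjusted p = 0.000311). Tpi1, triosephosphate isomerase, averaged 1698 ± 97.0 and 622 ± 197 TPM (SD, n = 3 each; 1.58 ± 0.21, SE, edgeR adjusted p = 0.000106). Gapdh averaged 11320 ± 1320 and 6534 ± 678 TPM (SD, n = 3 each; 0.91 ± 0.13, SE, edgeR adjusted p = 0.000224). Without the E+F- DMSO library of Set 1, in which none of the 20 genes was at its group's highest, 9 of 20 were called, when 19.8% of all genes were, and the median was 0.88. Under IWR-1 5 of 20 rose and 0 fell, when 10.4% of all genes rose, with a median of 0.34.

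The list of vessel growth, oxygen and iron supply had 8 of 24 tested genes higher and 0 lower in E+F+ cells under DMSO, when 12.8% of all genes were higher and 13.8% lower, with a median log2 difference of 0.59. Flt1, a receptor of vascular endothelial growth factor, averaged 27.6 ± 9.33 TPM in E+F+ DMSO and 1.65 ± 1.27 TPM in E+F- DMSO cells (SD, n = 3 each; 4.22 ± 0.52, SE, edgeR adjusted p = 7.13e-05). Its ligand Vegfa averaged 74.69 ± 8.55 and 18.02 ± 8.18 TPM (SD, n = 3 each; 2.17 ± 0.33, SE, edgeR adjusted p = 0.000335). Angpt1, a ligand of the receptor Tek, averaged 1.82 ± 0.764 and 0.0667 ± 0.0833 TPM (SD, n = 3 each; 4.99 ± 0.99, SE, edgeR adjusted p = 0.00202). Tek, Nos3, Epor, Tfrc and Cdh5 were the others called, and Tek and Cdh5 stand also among the endothelial markers. Without the E+F- DMSO library of Set 1, 5 of 24 rose and 0 fell. In that fit 19.8% of all genes were called, a share that counts both directions and so is not a like measure for genes that rose. Under IWR-1 9 of 24 rose and 0 fell, when 10.4% of all genes rose, with a median of 0.21.

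Of 23 tested genes of matrix, survival and feedback, 10 rose and 1 fell in E+F+ cells under DMSO, when 26.6% of all genes were called, with a median of 1.04. Higd1a, a mitochondrial protein, averaged 137 ± 21.3 TPM in E+F+ DMSO and 68.1 ± 9.12 TPM in E+F- DMSO cells (SD, n = 3 each; 1.12 ± 0.18, SE, edgeR adjusted p = 0.000543). Stc2, a secreted glycoprotein, averaged 15.8 ± 3.55 and 3.81 ± 2.27 TPM (SD, n = 3 each; 2.20 ± 0.42, SE, edgeR adjusted p = 0.00155). Pmaip1, which encodes the death-promoting protein Noxa, fell and averaged 4.67 ± 0.395 and 20.6 ± 4.18 TPM (SD, n = 3 each; -2.01 ± 0.25, SE, edgeR adjusted p = 7.61e-05). Without the E+F- DMSO library of Set 1, 4 rose and 1 fell of 24 tested, a share near the 19.8% of all genes called in that fit. Under IWR-1 2 rose and 1 fell of 23, when 22.5% of all genes were called, and with the Sets as a block 4 rose and 1 fell, when 31% were. Without the E+F- IWR-1 library of Set 1, 7 rose and 1 fell of 24, when 17.2% were called.

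**Figure D5:**
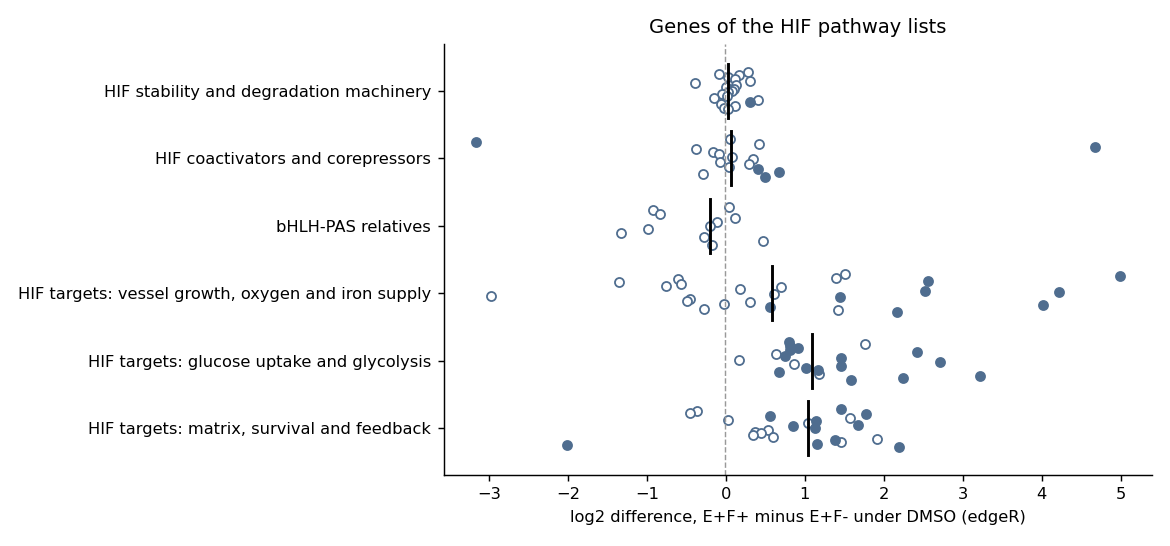
Log2 difference of E+F+ from E+F- cells under DMSO for each tested gene of the 6 lists, with filled points for an adjusted p under 0.05, a black bar at the median of the list and a dashed line at the median of all genes (-0.01). The medians of the 3 target lists stand at 0.59, 1.09 and 1.04, and those of the other lists at 0.03, 0.07 and -0.20.

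Genes that act on HIF protein were described in separate lists of stability and of coactivation. In the list of stability and degradation machinery, which holds the elongins, cullins, chaperones and Siah ligases, Stub1, a chaperone-linked ubiquitin ligase, was the 1 of 21 that rose in E+F+ cells under DMSO (0.31 ± 0.11, SE, edgeR adjusted p = 0.0444), and the median was 0.03. Of all genes, 12.8% rose in that comparison. Stub1 was not called without the E+F- DMSO library of Set 1. Under IWR-1 0 of 21 were called, when 22.5% of all genes were. With the Sets as a block 2 rose and 1 fell, when 31% of all genes were called. Of 16 coactivators and corepressors, 4 rose (Cited4, Ncoa3, Tada3 and Pkm, which is also in the glycolysis list) and 1 fell under DMSO, when 26.6% of all genes were called. Cited4, a co-regulator of the same family as Cited1, averaged 23.2 ± 18.3 TPM in E+F+ DMSO and 1.03 ± 0.908 TPM in E+F- DMSO cells (SD, n = 3 each; 4.67 ± 1.26, SE, edgeR adjusted p = 0.013). The gene that fell was Cited1, a transcriptional co-regulator, which averaged 7.55 ± 4.11 TPM in E+F+ DMSO and 72.1 ± 41.6 TPM in E+F- DMSO cells (SD, n = 3 each; -3.17 ± 0.48, SE, edgeR adjusted p = 0.00031). Without the E+F- DMSO library of Set 1, 1 rose and 2 fell. Under IWR-1 3 of 16 rose (Cited2, Cited4 and Ncoa2) and 0 fell, when 10.4% of all genes rose and 12.1% fell. Without the E+F- IWR-1 library of Set 1, 0 were called.

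Of 11 tested bHLH-PAS relatives, the family that includes Ahr and the clock genes, 0 were called in E+F+ against E+F- cells under DMSO, when 26.6% of all genes were. Under IWR-1 Per1 fell (-0.85 ± 0.28, SE, edgeR adjusted p = 0.0397), when 12.1% of all genes fell. With the Sets as a block 2 fell, when 31% of all genes were called in either direction. Without the E+F- IWR-1 library of Set 1, 0 were called. For IWR-1 against DMSO, 0 genes of the 6 lists were called in E+F+ or unsorted cells, when 0% and 0.094% of all genes were. In E+F- cells 1, Cited1, fell, when 0.521% of all genes were called. There, with the Sets as a block, 1 coactivator gene rose and 2 fell, when 1.49% of all genes were called. In E+F+ cells the medians of the target lists were -0.08 for glycolysis, 0.27 for vessel growth, oxygen and iron supply and -0.0097 for matrix, survival and feedback, against 0.01 over all genes. In E+F- cells they were 0.60, 0.34 and 0.73, against 0.01 over all genes, and 0.39, 0.54 and 0.29 without the E+F- IWR-1 library of Set 1. Slc2a1 averaged 1426 ± 94.4 TPM in E+F+ IWR-1 and 2475 ± 593 TPM in E+F+ DMSO cells, and Flt1 11.5 ± 1.81 and 27.6 ± 9.33 TPM (SD, n = 3 each), with log2 differences of -0.81 ± 0.45 and -1.27 ± 0.45 that did not pass (SE, edgeR adjusted p = 0.99 and 0.914).

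The genes most like Epas1 were ranked by the Pearson correlation of log2 CPM over the 18 libraries, among 10785 genes. These libraries share populations and Sets, so the correlations describe this series only. The leading 5 were St3gal5, a ganglioside synthase (r = 0.977), Igsf11, an adhesion protein (0.974), Ece1, which activates endothelin (0.969), Gucy1a3, a subunit of soluble guanylate cyclase (0.966), and Creb3l1, a transcription factor anchored in the endoplasmic reticulum (0.962). St3gal5 averaged 48.0 TPM in E+F+ IWR-1, 98.9 in E+F+ DMSO, 6.31 in E+F- IWR-1, 11 in E+F- DMSO, 17.9 in unsorted IWR-1 and 42.7 in unsorted DMSO libraries, the same order of levels as Epas1 but for E+F+ IWR-1 and unsorted DMSO, which were nearly level for Epas1. Of the 10 pathway genes Hif1a was nearest to Epas1, at r = 0.666 and rank 1394. Arnt2 was the farthest, at r = -0.89 and rank 10706, close to the other end of the order. By Spearman correlation 4 of these 5 leading genes stayed among the leading 5, and by correlation over the 6 group means 0 did.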

How the data were processed

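RNA of 18 libraries, 6 groups of 3, was sequenced as single unstranded reads. Per the labels and the study's methods, the authors made the reads with CASAVA 1.8.2 and used Bowtie 0.12.9 and RSEM 1.2.3 on mm10. They deposited a table of expected counts (estimated, unnormalised reads per gene) and a table of TPM (scaled to transcript length and to a fixed total per library). Without strand, reads of overlapping and antisense genes cannot be told apart. The count table held 13 rows that the TPM table did not, with 1.32% to 3.32% of the expected counts. These rows passed the filter and were part of the tests on counts. Only the fits and overlaps on TPM left them out.

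Expected counts were rounded and tested with the quasi-likelihood test of edgeR 4.0.16 in R 4.3.3, with TMM scaling, filterByExpr, all 6 groups in one fit and Benjamini-Hochberg adjustment over 13826 genes, at a threshold of 0.05. There were 9 comparisons between groups and 2 of IWR-1 effects between populations. Alternatives were DESeq2 1.42.0, other size factors, no filter, limma 3.58.1 on log2(TPM + 1) and log2(TPM + 0.1), only the groups compared, the Set number as a block, and leaving out each Set and each library. A block on only the groups compared, and list counts without 1 library, were added after seeing the data.

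The 10 genes and the lists were chosen with earlier results of these data known. Of each list up to 3 genes were named, those with the smallest adjusted p in E+F+ against E+F- cells under DMSO or in IWR-1 against DMSO in E+F+ cells. Genes singled out beyond these were chosen after their values were seen. The 5 genes most like Epas1 came from genes with a group mean of at least 5 CPM.

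Set numbers are those of the labels, which do not say what a Set shares. Libraries of the same Set were taken as paired where the deviations from the group means correlated by over 0.1 in all 3 Sets. The lowest correlation was 0.19 for E+F+ against E+F- under IWR-1, 0.34, 0.35 and 0.64 for IWR-1 in E+F+, E+F- and unsorted cells, 0.10 (0.1002) and 0.27 for E+F+ against unsorted under DMSO and IWR-1, and 0.25 for E+F- against unsorted under IWR-1. The other comparisons were not taken as paired. The study calls the samples independent biological samples. No 2 libraries of a group were duplicates (chi-square per degree of freedom of at least 15.6). The authors' own test was EBSeq, and its output was not used here.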

Additional observations from a re-analysis of the deposited data

Results flagged for a closer look

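Arnt had IWR-1 effects of opposite sign in the sorted populations. The log2 difference of IWR-1 from DMSO was -0.13 in E+F+ cells and 0.19 in E+F- cells, and by log2 CPM the sign was opposite in each of the 3 Sets. In Set 2 of the E+F- cells that difference was only 0.0018, and by TPM Arnt was lower with IWR-1 there, at 30.33 TPM against 32.56 TPM in DMSO, as in E+F+ cells. The effect in E+F+ cells was -0.32 ± 0.15 on the log2 scale relative to that in E+F- cells (SE, edgeR adjusted p = 1), so the difference did not pass. Groups of 3 libraries are too small for a check of single outlying libraries.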

How the results depend on the processing

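Of 894 values under alternative settings, 760 kept their direction and their side of the threshold or stayed within 1.5 times, 41 lost and 22 gained significance, 23 changed sign and 48 counts moved by more. The cause was not tested. The number of the 10 genes called for E+F+ relative to E+F- DMSO libraries (4) was 2 with limma on TPM at either pseudocount and without a filter, and 2 to 5 leaving out a Set or library. The Sets did not pair in this comparison (lowest correlation 0.098) or in E+F- against unsorted under DMSO (-0.0082). There the block gave Egln3 an adjusted p of 0.0477 and Vhl 0.0291 in the first and Hif1an 0.0262 in the second. For IWR-1 in E+F+ cells the count (0) was 1 with the block on 6 libraries. In unsorted cells (0) it was 1 with the block on all or on 6 libraries and 0 to 1 leaving out a Set or library, the 1 being Epas1 without Set 3 (-2.49, edgeR adjusted p = 0.0416). In E+F+ against unsorted under DMSO (1) it was 3 with DESeq2, 4 with the block, 5 with the block on 6 libraries, 0 with limma and 0 to 3 leaving out. In E+F- against unsorted under DMSO (2) it was 0 to 2 leaving out. In E+F+ against unsorted under IWR-1 (0) it was 1 with DESeq2, 3 with the block, 1 with the block on 6 libraries and 0 to 1 leaving out. In E+F- against unsorted under IWR-1 (1) it was 2 with DESeq2 and with the block, 0 with no filter, limma or only the groups compared, and 0 to 2 leaving out.

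Hif3a in E+F+ against E+F- under DMSO (0.05) was -0.049 with limma on log2(TPM + 1) with or without a filter, -0.071 on log2(TPM + 0.1), -0.15 to 0.25 leaving out a Set and -0.13 to 0.24 leaving out a library. The Epas1 difference of IWR-1 effects between E+F+ and E+F- cells (0.18) was -0.0055 with the block, -0.53 with limma on log2(TPM + 1) with or without a filter, -0.00056 on log2(TPM + 0.1), and -0.40 to 0.72 leaving out. Small IWR-1 effects also changed sign leaving out a Set or library: Hif1a in E+F+ cells ranged from -0.20 to 0.0041, Egln3 in E+F+ cells ranged from -0.19 to 0.0023, Egln1 in E+F- cells ranged from -0.0099 to 1.41, Egln3 in E+F- cells ranged from -0.22 to 1.38, Hif1a in unsorted cells ranged from -0.27 to 0.039, Egln1 in unsorted cells ranged from -1.09 to 0.43 and Egln3 in unsorted cells ranged from -0.75 to 0.46.

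Over all genes, calls in E+F+ against E+F- cells numbered 3681 under DMSO and 3111 under IWR-1, and 1431 to 3086 and 1108 to 2881 leaving out. IWR-1 against DMSO gave 0, 72 and 13 calls (E+F+, E+F-, unsorted), against 0 to 715, 31 to 259 and 1 to 990 in other fits and 0 to 2, 2 to 118 and 0 to 85 leaving out. Against unsorted cells the 1459, 1311, 1389 and 368 calls (E+F+ and E+F- under DMSO, then under IWR-1) became 753 to 2806, 630 to 2829, 833 to 2699 and 0 to 1717 in other fits, and 53 to 1555, 1 to 1503, 82 to 1495 and 0 to 1326 leaving out, the 1 of E+F- under DMSO being the fit without Set 2. The pathway lists had 40 calls between E+F+ and E+F- cells in DMSO, with Pkm counted in each of its lists, and 22 without the E+F- DMSO library of Set 1. On log2(TPM + 0.1) the median of all genes in that comparison was -0.12. Depth limits Epas1 most in E+F- cells, where 16.1 expected counts was the lowest.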
